A study of Rattus norvegicus with 19 samples.

Results

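The genes described are the glutamate receptor subunits, chosen by gene symbol: *Gria1* to *Gria4*, *Grik1* to *Grik5*, *Grid1*, *Grin1*, *Grin2a* to *Grin2d*, *Grin3a*, *Grin3b*, *Grm2* to *Grm8*. They are 24 of the 32623 genes counted, and all 24 passed the filter on low counts that left 15440 genes for testing. RNA was sequenced from the hippocampus of male Sprague Dawley rats, an outbred stock, in 19 libraries. The 4 groups were 6 wt rats, 4 Del/+ rats with 1 copy of the *Sult1a1* to *Spn* interval, 5 Dup/+ rats with 3 copies, and 4 Del/Dup rats that carried the deletion on 1 chromosome and the duplication on the other, so that their number of copies was 2 as in wt. The deletion and the duplication of this interval, the rat counterpart of human 16p11.2, were made with CRISPR/Cas9, no other allele or treatment is given, and the age of the animals is not given beyond adult.

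Glutamate is the main excitatory transmitter of the brain. AMPA receptors (*Gria* genes), kainate receptors (*Grik* genes) and NMDA receptors (*Grin* genes) are ion channels assembled from 4 subunits each, and the delta receptor *Grid1* is related to them in sequence. AMPA receptors carry most of the fast current at hippocampal synapses, NMDA receptors admit calcium and are needed for long-term potentiation, and kainate receptors act on both sides of the synapse, at mossy fibre synapses among others. The metabotropic receptors (*Grm* genes) couple to G proteins, those of group I to phospholipase C and those of groups II and III to the inhibition of adenylyl cyclase.

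Total counts per library ranged from 16191192 to 38760645. The labels were checked on the interval: over 23 interval genes tested, the median ratio to the wt mean lay between 0.973 and 1.01 for wt libraries, 0.479 and 0.536 for Del/+, 1.40 and 1.501 for Dup/+, and 0.940 and 1.01 for Del/Dup. The label of wt replicate 5 gave wt in its description and Dup/+ in its genotype field. The library was counted as wt, and its ratio over the interval genes was 0.973. This is beside the other wt libraries, at 0.974 to 1.01, and outside the Dup/+ range. The share of reads that aligned to more than 1 place was 40.1% to 50.5% in all wt and Dup/+ libraries and in Del/+ replicate 4, and 57.8% to 76.3% in Del/+ replicates 1, 2 and 3 and in every Del/Dup library, so that a high share and the Del/Dup genotype cannot be told apart in direct comparison with wt. Excitatory neuron markers (5 of 5 in the files, none at 0) summed to between 4650 and 5195 counts-per-million (CPM) for wt, 3965 and 4485 for Del/+, 4286 and 4894 for Dup/+, and 3721 and 4616 for Del/Dup. Dentate granule cell markers (4 of 4, none at 0) were lowest in Del/Dup replicate 2 and Del/+ replicate 2, at 195 and 236 CPM against 299 to 386 in wt. All 4 Del/+ libraries, at 236 to 289 CPM, were below every wt library in this sum, and the ranges of 2 of the 4 markers, *Prox1* and *C1ql2*, did not overlap between Del/+ and wt. Of the CA field markers, *Fibcd1* was at 0 in every library.

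The member whose call passed the test across all genes was *Grin2c*, and 3 others with the smallest unadjusted p values were *Grik1*, *Grin1* and *Grik5*. The 250 bases before the annotated start of these 4 genes are shown because the comparisons turn on them. Sequences are from RefSeq for the assembly GRCr8, which is not the assembly of the counts, and each reads 5′ to 3′ on the strand of its gene. All 4 genes lie on the minus strand, *Grin2c* at chr10:101005139-101005388, *Grin1* at chr3:28528755-28529004, *Grik5* at chr1:89794910-89795159 and *Grik1* at chr11:41056504-41056753. Capitals mark the GC box GGGCGG and the cAMP response element half-site TGACG, each on either strand.
Grin2c: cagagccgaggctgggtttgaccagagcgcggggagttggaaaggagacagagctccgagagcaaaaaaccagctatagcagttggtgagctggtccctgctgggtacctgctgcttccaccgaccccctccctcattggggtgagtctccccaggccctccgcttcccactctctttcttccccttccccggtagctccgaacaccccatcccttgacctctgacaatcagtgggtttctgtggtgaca
Grin1: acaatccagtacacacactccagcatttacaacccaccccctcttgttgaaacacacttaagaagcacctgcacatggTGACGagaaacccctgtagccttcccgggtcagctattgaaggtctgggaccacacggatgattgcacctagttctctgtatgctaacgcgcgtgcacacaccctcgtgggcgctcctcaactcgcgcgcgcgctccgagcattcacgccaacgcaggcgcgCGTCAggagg
Grik5: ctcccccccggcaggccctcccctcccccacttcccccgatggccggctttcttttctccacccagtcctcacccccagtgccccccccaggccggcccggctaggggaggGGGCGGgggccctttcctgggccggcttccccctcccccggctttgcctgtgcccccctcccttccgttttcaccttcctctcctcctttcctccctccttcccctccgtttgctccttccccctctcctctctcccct
Grik1: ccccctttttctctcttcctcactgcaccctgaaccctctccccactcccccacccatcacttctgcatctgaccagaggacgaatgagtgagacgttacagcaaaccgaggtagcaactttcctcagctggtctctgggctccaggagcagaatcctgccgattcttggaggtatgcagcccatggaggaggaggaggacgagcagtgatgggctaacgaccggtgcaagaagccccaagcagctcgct
Of the 24 genes, 14 had a window in that table. The GC box was found in 3 of the 14 windows (21.4%) and in 30.5% of all 33469 windows of this length, and the half-site TGACG in 2 of 14 (14.3%) against 18.2% of all. *Grik5* held 1 GC box, 139 bases before the start, in a window of 70.8% G and C, while *Grin1* held 2 half-sites, 172 and 10 bases before the start. *Grin2c* and *Grik1* held neither set of letters, and 3 more motifs searched on both strands, the TATA box TATAAA, the E-box CACGTG and the RE1 half-site TTCAGCACC were in none of the 14 windows. They were in 12.9%, 5.59% and 0.305% of all windows in that order.

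To see whether a change in copies of the interval went with a change in receptor genes, each group of carriers was set against wt, with levels as CPM on the scaled library size, log2 fold changes (FC) with their standard error (SE), and p values from the quasi-likelihood test of edgeR, adjusted over all 15440 genes. In Del/+ rats 1 of 24 receptor genes was called at an adjusted p under 0.05 (4.17%, where 0.771% of all genes tested were called), and this gene, *Grin2c*, was lower. DESeq2 called 4 of 24 (16.7%, where 4.15% of the genes it gave an adjusted p were called), *Grin2c* (adjusted p = 0.00017), *Grik1* (0.0097), *Grin1* (0.026) and *Grik5* (0.033), and in edgeR leaving out 1 library gave 0 (without Del/+ replicate 2) to 3 calls (without Del/Dup replicate 2 or 3). Without adjustment, 4 genes (16.7%) were lower at a p under 0.05, where 9.68% of all genes were, namely *Grin2c*, *Grin1*, *Grik5* and *Grik4*, and 3 genes (12.5%) were higher, where 8.77% of all genes were, namely *Grik1*, *Grm8* and *Grm3*. The ranges of Del/+ and wt did not overlap for 3 genes (12.5%, against 4.94% of all genes), *Grin2c*, *Grin1* and *Grik1*. The median log2 FC over the 24 genes was -0.07, and that over all genes tested was 0.00064. With the sum of the dentate markers as a covariate the median over the 24 genes turned to 0.014. Since this sum separates Del/+ from wt with no overlap, the covariate and the Del/+ genotype cannot be told apart, here and wherever a Del/+ value with this covariate is given. Because the tissue is bulk hippocampus, fewer cells of a type and less RNA per cell cannot be told apart.

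**Figure D1:**
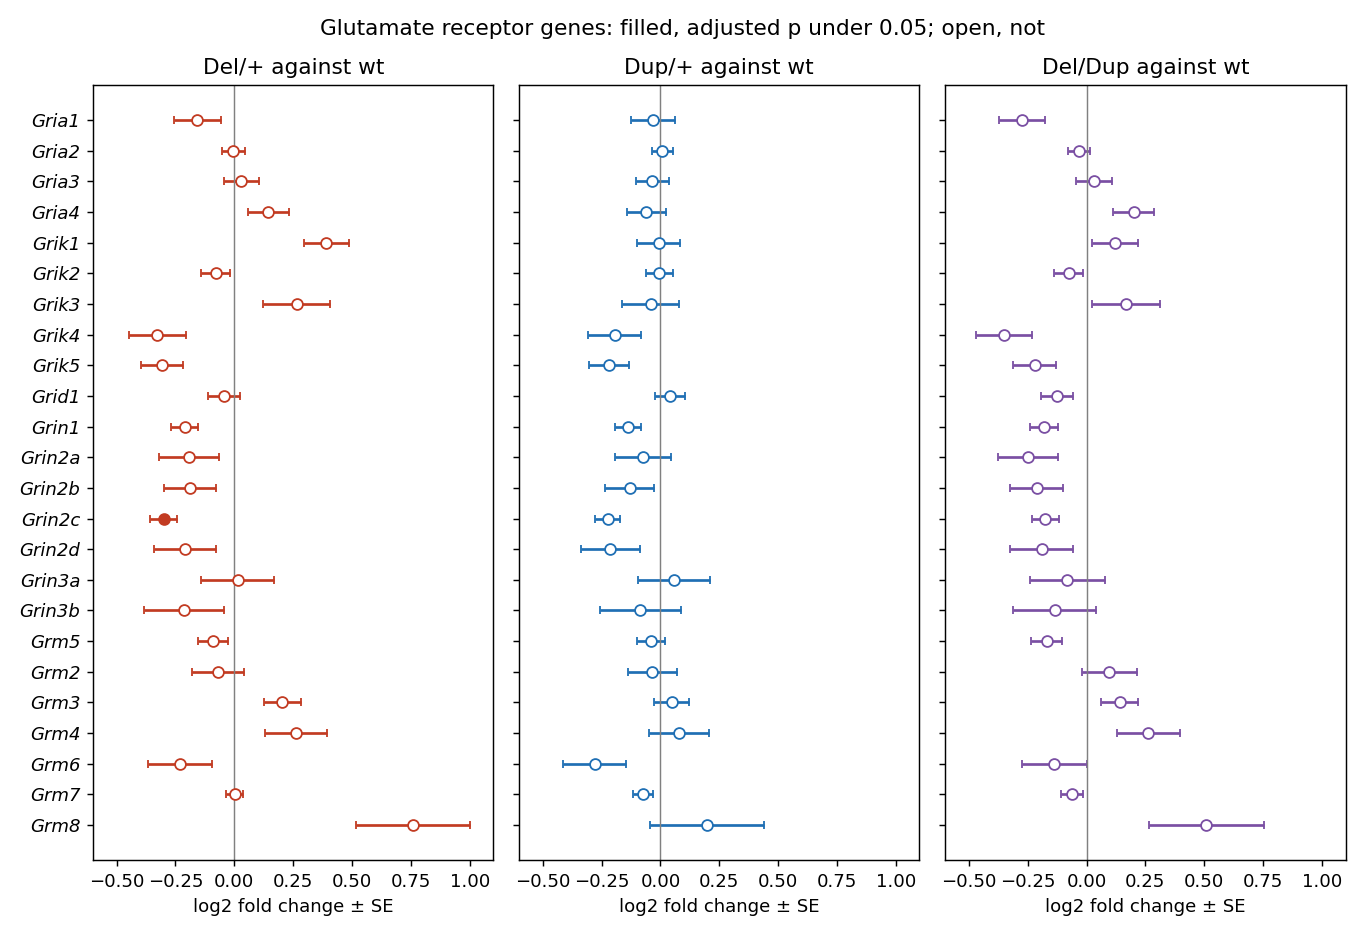
Log2 FC of each of the 24 receptor genes (points, with SE as bars) in Del/+, Dup/+ and Del/Dup rats against wt, with filled points for an adjusted p under 0.05. *Grin2c* in Del/+, at -0.30, is the filled point, and the widest bars are those of *Grm8*.

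*Grin2c* encodes GluN2C, a glutamate-binding NMDA subunit best known from the cerebellum. Its level in wt ran from 95.2 CPM through a median of 102 to 110 CPM. In the Del/+ rats it was 85.4, 77.8, 80.5 and 87.5 CPM for replicates 1 to 4, and in the Dup/+ rats 85.5, 88.3, 85.3, 91.1 and 86.6 CPM for replicates 1 to 5. Every Del/+ and every Dup/+ library was thus below the lowest wt library, while the Del/Dup libraries, at 85.8, 104, 90.4 and 81.8 CPM for replicates 2 to 5, overlapped with wt through replicate 3. The log2 FC of *Grin2c* was -0.30 (SE 0.057, edgeR adjusted p = 0.014) in Del/+, a mean of 82.8 ± 4.44 CPM (SD, n = 4) against 102 ± 5.98 CPM (SD, n = 6). It was -0.22 (SE 0.054, edgeR adjusted p = 0.13) in Dup/+ and -0.17 (SE 0.058, edgeR adjusted p = 0.18) in Del/Dup, neither of which passed the test. These 3 comparisons share the wt libraries. The Del/+ and Dup/+ values of *Grin2c* differed by -0.08 (95% interval -0.19 to 0.04, edgeR adjusted p = 0.62), so that a difference between the opposite changes in copies was not detected.

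The *Grin2c* call in Del/+ was lost without Del/+ replicate 2 (log2 FC -0.27, edgeR adjusted p = 0.096). It was also lost when the genotype field was followed for wt replicate 5 (-0.29, edgeR adjusted p = 0.062), a library whose interval genes were at the wt level. With a term for the share of multi-mapped reads the log2 FC was -0.22. Only Del/+ holds libraries of both shares, so this value rests on Del/+ replicate 4 alone against wt. Del/+ replicate 4, the Del/+ library with a low share, was at 87.5 CPM, below every wt library. The part of the share in the *Grin2c* result was not tested. Astrocyte markers (5 of 5, none at 0) summed to 2716 to 3067 CPM in Del/+ and 2807 to 3515 CPM in wt. Cerebellum markers (5 of 5, none at 0 in every library) summed to 77.7 to 110 CPM in Del/+ and 86.5 to 107 CPM in wt. Most of the cerebellum sum was *Calb1*, with a wt mean of 88.2 CPM. *Zic1*, *Gabra6*, *Cbln3* and *Pcp2* had wt means of 6.14, 0.43, 0.11 and 0.083 CPM, and the last 2 were at 0 in some libraries. The part of the astrocyte and cerebellum markers in the result was not tested. With the sum of the dentate markers as a covariate the log2 FC of *Grin2c* was -0.25 (adjusted p = 0.15).

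Among the other NMDA subunits, *Grin1* encodes GluN1, which every NMDA receptor holds. Levels of *Grin1* ranged from 470 to 536 CPM in wt with a median of 505 CPM. The Del/+ libraries held 439, 424, 452 and 415 CPM for replicates 1 to 4, all below wt, the Dup/+ libraries 459, 432, 428, 506 and 448 CPM for replicates 1 to 5, and the Del/Dup libraries 392, 498, 446 and 432 CPM for replicates 2 to 5. Dup/+ replicate 4 and Del/Dup replicate 3 were within the wt range. For *Grin1* the log2 FC was -0.21 (SE 0.059, edgeR adjusted p = 0.086) in Del/+, -0.14 (SE 0.056, adjusted p = 0.48) in Dup/+ and -0.18 (SE 0.059, adjusted p = 0.18) in Del/Dup. None passed the test in edgeR, and DESeq2 called *Grin1* in Del/+. With the dentate covariate the Del/+ value of *Grin1* was -0.12 (adjusted p = 0.50).

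The glutamate-binding subunits *Grin2a* and *Grin2b*, which set the kinetics of hippocampal NMDA receptors, varied more between libraries of a group. *Grin2a* was 487 ± 56.6 CPM in wt (SD, n = 6), 427 ± 44.7 CPM in Del/+ (n = 4), 463 ± 104 CPM in Dup/+ (n = 5) and 410 ± 62.2 CPM in Del/Dup (n = 4). *Grin2b* was 513 ± 59.4, 450 ± 42.0, 468 ± 82.1 and 443 ± 55.4 CPM in the same order. The groups overlapped for both genes, and the log2 FC against wt lay between -0.25 and -0.07 for *Grin2a* and between -0.21 and -0.13 for *Grin2b*. *Grin2d*, *Grin3a* and *Grin3b* had few reads, with wt means of 8.36, 18.6 and 2.41 CPM, and no comparison of these with wt had an unadjusted p under 0.05. Over the 7 NMDA genes the median log2 FC was -0.21 in Del/+, -0.13 in Dup/+ and -0.18 in Del/Dup. Over the 5 excitatory neuron markers it was -0.21, -0.11 and -0.22 in the same order, and their summed level in every Del/+ library was below that of every wt library. Their part in the NMDA values was not tested.

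**Figure D2:**
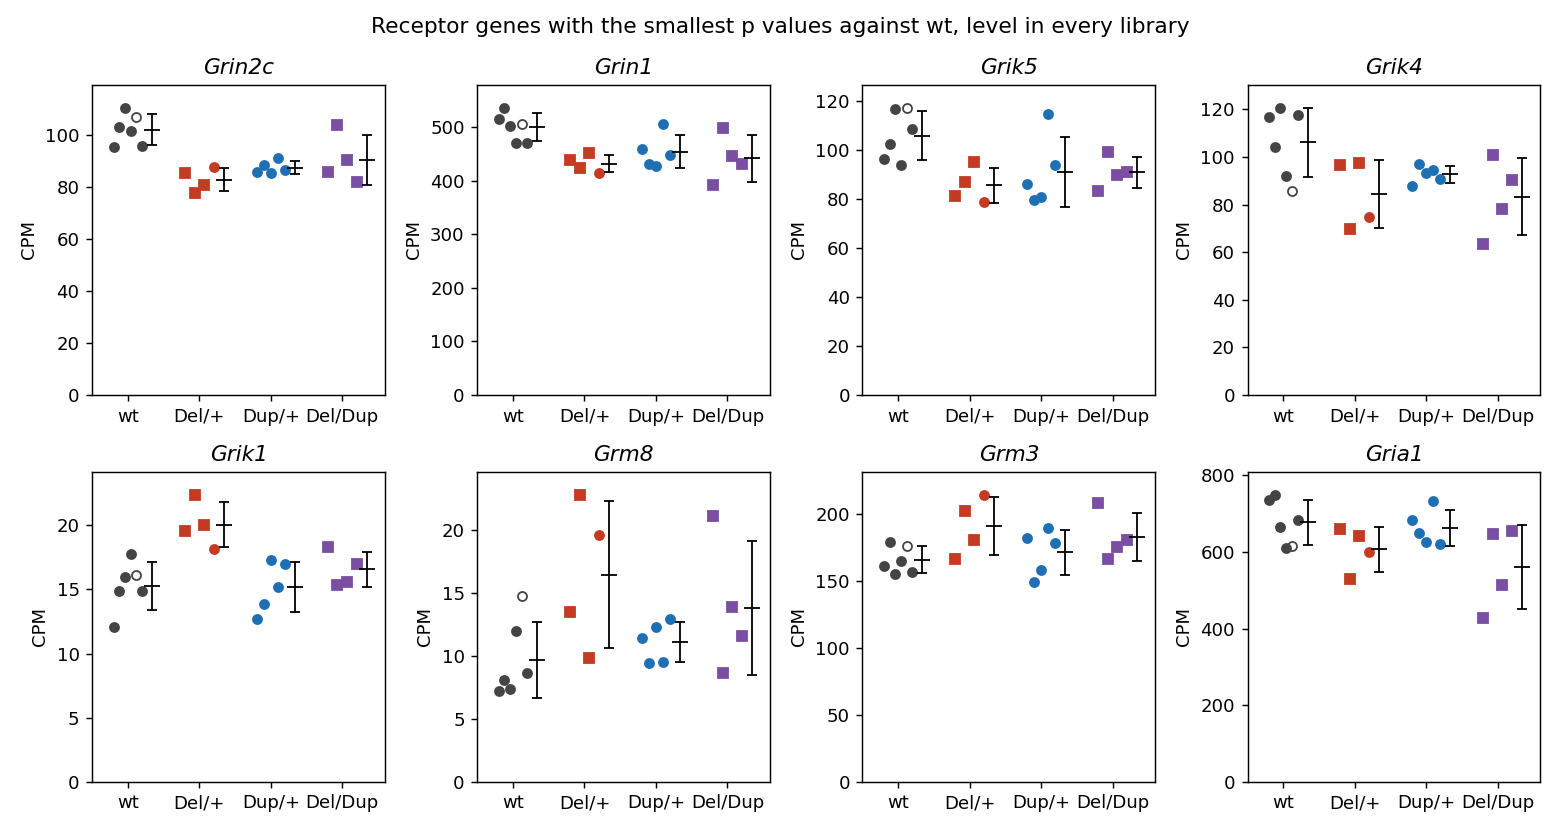
Level in CPM of 8 receptor genes in every library by group (circles, a low share of multi-mapped reads, squares, a high share, open circle, wt replicate 5), with the mean and SD beside the points. *Grin2c* in Del/+ and Dup/+ and *Grin1* in Del/+ sit below every wt point, and *Grik1* in Del/+ sits above every wt point.

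Kainate receptor genes had differences from wt in both directions. None passed the adjusted test in edgeR, while DESeq2 called *Grik1* and *Grik5* in Del/+. *Grik1* encodes GluK1, a pore-forming subunit found largely in hippocampal interneurons. Its wt levels ranged from 12.0 to 17.7 CPM with a median of 15.4 CPM. It stood at 19.6, 22.4, 20.03 and 18.2 CPM in Del/+ replicates 1 to 4, all above wt, at 12.7, 13.9, 17.3, 15.2 and 17.0 CPM in Dup/+ replicates 1 to 5, and at 18.3, 15.4, 15.6 and 17.0 CPM in Del/Dup replicates 2 to 5. The log2 FC of *Grik1* in Del/+ was 0.39 (SE 0.095, edgeR adjusted p = 0.059), which missed the threshold, and DESeq2 gave 0.39 (adjusted p = 0.0097), with counts of 373 to 525 in wt and 546 to 761 in Del/+. In Dup/+ it was -0.01 (95% interval -0.19 to 0.17) and in Del/Dup 0.12 (-0.07 to 0.31).

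Inhibitory neuron markers (5 of 5, none at 0) summed to 697 to 824 CPM in Del/+ and 681 to 773 CPM in wt. Their median log2 FC in Del/+ was 0.05. The ranges of 1 of the 5, *Pvalb*, did not overlap, at 38.2 to 49.6 CPM in Del/+ and 28.9 to 35.7 CPM in wt (log2 FC 0.41). Thalamus markers (4 of 4, none at 0) summed to 34.9 to 68.4 CPM in Del/+ and 31.5 to 38.4 CPM in wt. The part of the inhibitory and thalamus markers in the *Grik1* values was not tested. With the term for multi-mapped reads the *Grik1* value in Del/+ was 0.25, which rests on Del/+ replicate 4 alone against wt. Without the 2 libraries lowest in dentate markers the *Grik1* value was 0.34 (edgeR adjusted p = 0.16).

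*Grik4* and *Grik5* encode the high-affinity subunits GluK4 and GluK5, which form channels together with GluK1 to GluK3. *Grik5* ranged from 93.9 to 117 CPM in wt with a median of 105 CPM. It was 81.3, 86.8, 94.8 and 78.8 CPM in Del/+ replicates 1 to 4, 86.0, 79.5, 80.6, 115 and 93.6 CPM in Dup/+ replicates 1 to 5, and 83.3, 98.8, 89.8 and 91.0 CPM in Del/Dup replicates 2 to 5. Each carrier group had at least 1 library within the wt range. Its log2 FC was -0.31 (SE 0.090, edgeR adjusted p = 0.095) in Del/+, -0.22 (SE 0.085, adjusted p = 0.47) in Dup/+ and -0.22 (SE 0.091, adjusted p = 0.25) in Del/Dup.

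*Grik4*, known from CA3 pyramidal cells and the dentate gyrus, ranged from 85.7 to 121 CPM in wt. Its 2 lowest libraries were Del/Dup replicate 2, at 63.3 CPM, and Del/+ replicate 2, at 69.8 CPM, the same libraries that were lowest in dentate markers. The other libraries of Del/+ were at 96.5, 97.3 and 74.8 CPM and those of Del/Dup at 101, 78.1 and 90.4 CPM, and Dup/+ ran from 87.7 to 97.2 CPM. The log2 FC of *Grik4* was -0.33 (SE 0.12, edgeR adjusted p = 0.15) in Del/+ and -0.35 (SE 0.12, adjusted p = 0.19) in Del/Dup. With the dentate covariate it was -0.17 in Del/+, and with the term for multi-mapped reads -0.50 in Del/+ and -0.58 in Del/Dup. The Del/+ value with this term rests on Del/+ replicate 4 alone against wt. Every Del/Dup library and no wt library had a high share of multi-mapped reads. The Del/Dup value with this term therefore rests on how Del/+ replicate 4 differed from the other Del/+ libraries. It cannot separate the share from the Del/Dup genotype. *Grik2* and *Grik3* showed no unadjusted p under 0.05 against wt. *Grik3* was highest in Del/+ replicates 2 and 4, at 43.4 and 40.5 CPM, against 24.6 to 31.8 CPM in wt.

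**Figure D3:**
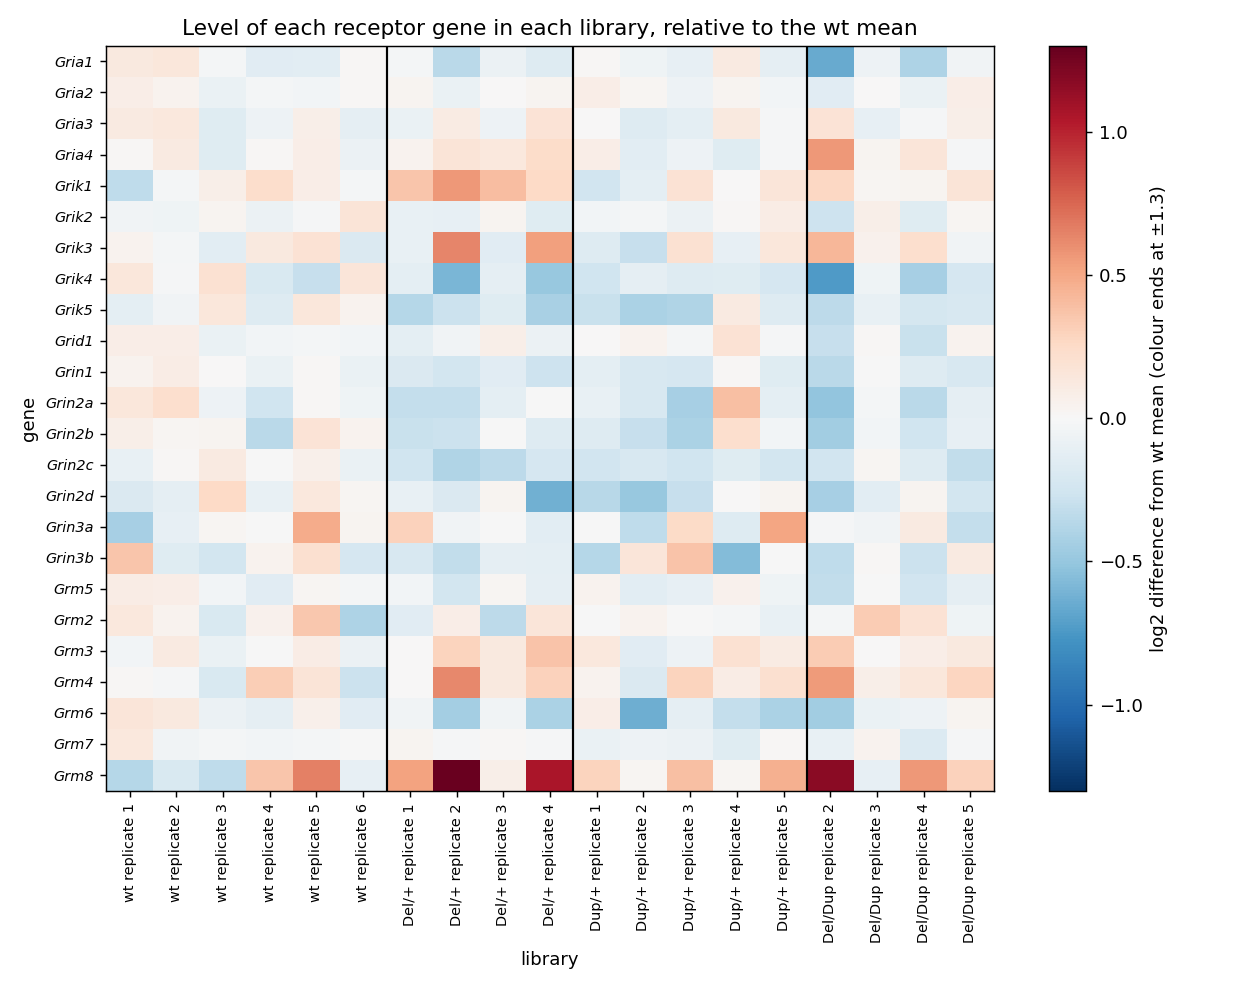
Log2 difference of each receptor gene (rows) from its wt mean in each of the 19 libraries (columns, grouped by genotype), blue for lower and red for higher. Del/Dup replicate 2 is the lowest of all libraries for 9 genes and the highest for 2, and Del/+ replicate 2 is the highest for 4.

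Markers of 2 tissues next to the hippocampus were high in Del/Dup replicate 2. Choroid plexus markers (6 of 6 in the files, *Otx2* at 0 in every library) summed to 2.79 to 33.8 CPM in wt, 4.80 to 1246 CPM in Del/+, 6.11 to 402 CPM in Dup/+ and 40.6 to 1199 CPM in Del/Dup, with the top of Del/Dup in replicate 2. In Del/+ the top was in replicate 3, and replicate 2 was at 4.80 CPM. All 5 choroid plexus genes tested were higher at an unadjusted p under 0.05 in Del/+ (median log2 FC 3.43) and in Del/Dup (4.00), 2 of 5 were in Dup/+ (2.19), and edgeR called 0 of 5 in each. Striatum markers (5 of 5, none at 0) were also highest in Del/Dup replicate 2, at 148 CPM against 78.9 to 94.6 CPM in wt. With the level of the choroid plexus gene *Ttr* as a covariate, 1 receptor gene was called in Del/+, *Grin2c* (log2 FC -0.29, edgeR adjusted p = 0.049), and 0 in Dup/+ and Del/Dup. The part of the other choroid plexus markers and of the striatum markers was not tested.

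AMPA receptor genes showed no call in any comparison, by edgeR or by DESeq2. *Gria2* encodes GluA2, the subunit whose edited form keeps calcium out of the channel, and it had the most reads of the class. It was 1062 ± 47.1 CPM in wt (SD, n = 6), 1059 ± 43.1 CPM in Del/+ (n = 4), 1067 ± 43.6 CPM in Dup/+ (n = 5) and 1038 ± 74.7 CPM in Del/Dup (n = 4). The 95% intervals of its log2 FC were -0.10 to 0.09 for Del/+, -0.08 to 0.09 for Dup/+ and -0.13 to 0.06 for Del/Dup.

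*Gria1*, the gene of GluA1, which is inserted into synapses during potentiation, was 612 to 750 CPM in wt with a median of 674 CPM. Its Del/Dup libraries were at 429, 647, 513 and 654 CPM for replicates 2 to 5, and its Del/+ libraries at 661, 529, 641 and 599 CPM for replicates 1 to 4. The log2 FC of *Gria1* was -0.27 (SE 0.098, edgeR adjusted p = 0.21) in Del/Dup, with 2 of 4 libraries below wt, and -0.16 (SE 0.098, adjusted p = 0.41) in Del/+. The Del/Dup value was -0.16 without Del/Dup replicate 2, and the Del/+ value was -0.09 without Del/+ replicate 2 and turned to 0.03 with the dentate covariate. *Gria4* was highest in Del/Dup replicate 2, at 124 CPM, against 74.8 to 90.7 CPM in wt, and its log2 FC in Del/Dup was 0.20 (SE 0.087, adjusted p = 0.26), and 0.06 without that library. *Gria3* differed from wt by 0.04 or less in size in each group.

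Because subunits share receptors, ratios were computed within each library, where the scaling cancels, and they are given as descriptions. The log2 ratio of *Gria1* to *Gria2* reads was -0.65 ± 0.088 in wt (SD, n = 6), -0.81 ± 0.095 in Del/+ (n = 4), -0.69 ± 0.069 in Dup/+ (n = 5) and -0.91 ± 0.20 in Del/Dup (n = 4). The ranges of wt, from -0.77 to -0.55, and Del/+, from -0.91 to -0.72, overlapped. The log2 ratio of *Grin2a* to *Grin2b* was -0.07 ± 0.14 in wt, -0.08 ± 0.12 in Del/+, -0.03 ± 0.10 in Dup/+ and -0.11 ± 0.047 in Del/Dup. That of *Grin2b* to *Grin1* was 0.03 ± 0.16, 0.05 ± 0.11, 0.03 ± 0.16 and -0.00050 ± 0.097 in the same order.

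**Figure D4:**
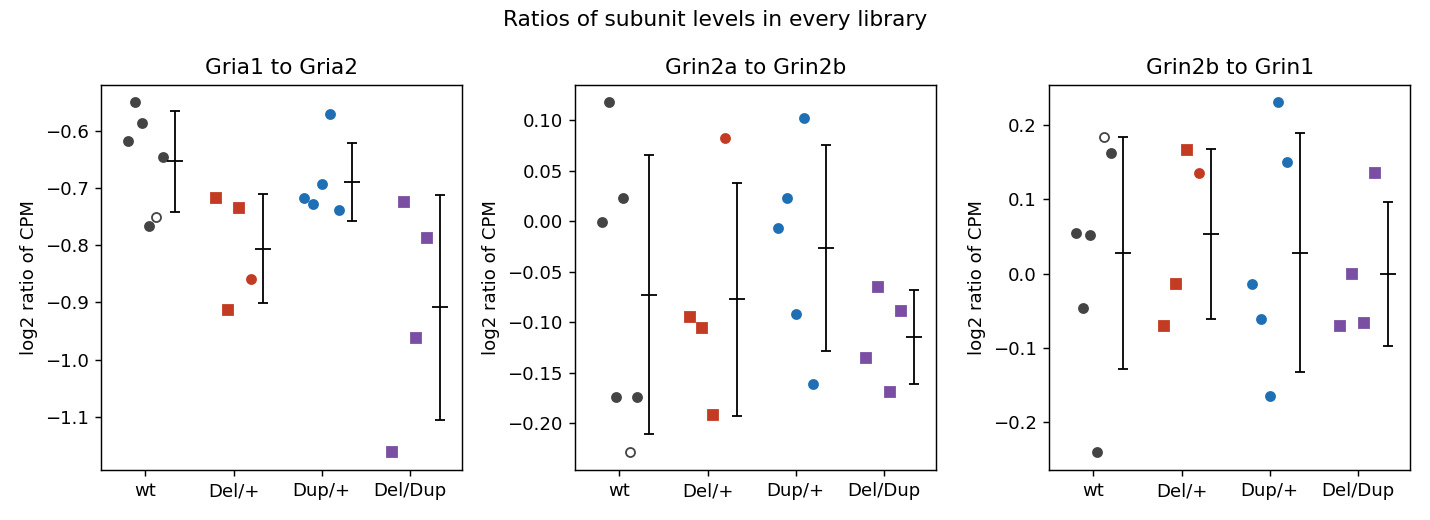
Log2 ratio of reads of 2 subunits within each library by group (symbols as in the plot of levels), with the mean and SD beside the points. The *Gria1* to *Gria2* ratio is lowest in Del/Dup replicate 2, at -1.16, and each of the 3 mutant groups overlaps with wt in each ratio.

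Among metabotropic receptors, *Grm5* encodes mGluR5, a postsynaptic group I receptor. It was 237 ± 14.2 CPM in wt (SD, n = 6), 223 ± 16.9 CPM in Del/+ (n = 4), 231 ± 14.2 CPM in Dup/+ (n = 5) and 211 ± 21.1 CPM in Del/Dup (n = 4), where the log2 FC was -0.17 (SE 0.065, edgeR adjusted p = 0.22). *Grm3*, a group II receptor that astrocytes also express, ranged from 155 to 179 CPM in wt and was 166, 202, 181 and 214 CPM in Del/+ replicates 1 to 4, with a log2 FC of 0.20 (SE 0.078, edgeR adjusted p = 0.17). Oligodendrocyte markers (5 of 5, none at 0) were highest in Del/+ replicates 4 and 2, at 8214 and 7146 CPM against 4612 to 5998 CPM in wt, and their part in the *Grm3* values was not tested. *Grm2* was 46.0 ± 8.16 CPM in wt and between 43.9 and 49.3 CPM on average in the carriers.

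The group III receptors are mostly presynaptic and reduce transmitter release. *Grm8* had the largest spread of the 24 genes, with an SD of 0.43 on the log2 scale within groups, against a median of 0.17 over the 24 genes and 0.13 over all genes tested. It ranged from 7.18 to 14.7 CPM in wt with a median of 8.40 CPM, and was 13.5, 22.8, 9.87 and 19.6 CPM in Del/+ replicates 1 to 4, 9.48 to 12.9 CPM in Dup/+, and 21.2, 8.69, 13.9 and 11.6 CPM in Del/Dup replicates 2 to 5. The log2 FC of *Grm8* in Del/+ was 0.76 (SE 0.24, edgeR adjusted p = 0.11), with 2 of 4 libraries above wt, and 0.38 (adjusted p = 0.63) with the dentate covariate. *Grm7*, the group III gene with the most reads, had the smallest spread of the 24, at 0.067, and its log2 FC lay between -0.08 and 0.002 in the 3 groups. *Grm4* and *Grm6*, at 7.89 and 3.898 CPM in wt, did not pass the adjusted test. The delta receptor *Grid1*, which binds cerebellins and is not opened by glutamate, was 38.5 ± 1.955 CPM in wt, 37.4 ± 2.26 CPM in Del/+, 39.6 ± 2.47 CPM in Dup/+ and 35.3 ± 4.58 CPM in Del/Dup.

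In Dup/+ rats 0 of 24 receptor genes were called by edgeR, where 0.272% of all genes were, and 1 (4.17%), *Grin2c*, by DESeq2 (adjusted p = 0.019), which called 0.518% of all genes. At an unadjusted p under 0.05, 4 genes (16.7%) were lower, where 4.48% of all genes were, namely *Grin2c*, *Grik5*, *Grin1* and *Grm6*, and 0 were higher, where 4.46% of all genes were. The ranges did not overlap with wt for 1 gene (4.17%, against 1.17% of all genes), *Grin2c*. The median log2 FC over the 24 genes was -0.04. It was -0.08 without wt replicate 6, -0.07 without wt replicate 3, -0.06 without Dup/+ replicate 5 and -0.03 without wt replicate 1. Following the genotype field for wt replicate 5 gave -0.01.

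In Del/Dup rats, whose number of copies equals that of wt, 0 of 24 were called by edgeR, where 0.0907% of all genes were, and 0 by DESeq2, which called 1.19% of all genes. Without adjustment 6 genes (25.0%) were lower, where 8.06% of all genes were, namely *Grik4*, *Grin2c*, *Grin1*, *Gria1*, *Grm5* and *Grik5*. In the other direction 1 gene (4.17%), *Gria4*, was higher, where 8.15% of all genes were. No receptor gene had a range apart from wt, against 2.56% of all genes. The median log2 FC was -0.10, and it was -0.06 without Del/Dup replicate 2. It was also smaller in size with the dentate covariate, as given in the section on processing. Leaving out Del/Dup replicate 3 instead gave 2 calls, *Grin1* (-0.24, edgeR adjusted p = 0.044) and *Grin2c* (-0.24, adjusted p = 0.037).

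The opposite changes in copies were also set against each other. Between Del/+ and Dup/+ 0 of 24 genes were called by edgeR, where 0.784% of all genes were, and 1 (4.17%), *Grik1*, by DESeq2 (adjusted p = 0.015), which called 1.84% of all genes. At an unadjusted p under 0.05 there were 4 genes (16.7%), where 13.5% of all genes passed in either direction, and all 4, *Grik1*, *Gria4*, *Grik3* and *Grm8*, were higher in Del/+. For *Grik1* the difference was 0.40 (SE 0.10, edgeR adjusted p = 0.073), and the 4 Del/+ libraries were above all 5 Dup/+ libraries. In the slope on 1, 2 or 3 copies 0 of 24 genes were called by edgeR, where 0.576% of all genes were, and 0 by DESeq2, which called 1.05%. The same slope gave 3 genes (12.5%) with an unadjusted p under 0.05, where 11.5% of all genes had one, and *Grik1*, at -0.19 per copy (SE 0.054, edgeR adjusted p = 0.14), had the smallest p. Thalamus markers moved in the same comparisons: all 4 were above 0 between Del/+ and Dup/+ (median 0.48), 3 with an unadjusted p under 0.05, and edgeR called 2 of 4, *Prkcd* and *Rora*, both there and in the slope. Their part in the receptor values was not tested. With the term for multi-mapped reads the *Grik1* difference was 0.26, which rests on Del/+ replicate 4 alone against Dup/+. With the dentate covariate the *Grik1* slope was -0.12 (edgeR adjusted p = 0.48).

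None of the 24 genes lies in the interval. *Grik5*, *Grin2d* and *Grm5* share its chromosome, chromosome 1, with 2409, 1820 and 894 genes of the GRCr8 table between each of them and the interval.

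Partners of the receptors were described from 5 lists. Of 16 AMPA receptor auxiliary subunits tested, among them the TARP gene *Cacng8* and the cornichon *Cnih2*, edgeR called 0 in any comparison. It called between 0.0907% and 0.784% of all genes in these comparisons. The median log2 FC of the auxiliary subunits was -0.15 in Del/+, -0.03 in Dup/+ and -0.12 in Del/Dup. *Cacng8* was at -0.39 (SE 0.13, edgeR adjusted p = 0.12) and *Cnih2* at -0.35 (SE 0.12, adjusted p = 0.12) in Del/+. Without adjustment (p under 0.05) 9 of the 16 were lower and 0 higher in Del/+, where 9.68% of all genes were lower and 8.77% higher. In Dup/+ 2 were lower and 1 higher, where 4.48% and 4.46% of all genes were, and in Del/Dup 2 were lower and 0 higher, where 8.06% and 8.15% were. Of the 5 excitatory neuron markers, 3 were lower at that threshold in Del/+, 2 in Dup/+ and 4 in Del/Dup, with median log2 FC of -0.21, -0.11 and -0.22, and their part in the values of the auxiliary subunits was not tested. EdgeR also made no call among 7 kainate and delta receptor partners, which include *Neto1* and the cerebellins. The same held for 13 genes of receptor anchoring and trafficking, with *Dlg4*, the gene of PSD-95, and for 13 genes of receptor signalling. At the unadjusted threshold the partners were 3 lower and 2 higher in Del/+ and 1 and 1 in Del/Dup. Anchoring genes were 4 lower and 0 higher in Del/+ and 6 and 2 in Del/Dup, and signalling genes 6 lower and 1 higher in Del/+ and 9 and 1 in Del/Dup, beside the same shares of all genes. In Dup/+ these 3 lists held 0 genes past it in either direction. *Camk2a* is on both the signalling list and that of the excitatory markers, and *C1ql2* on both the list of kainate and delta partners and that of the dentate markers. *Camk2a*, the kinase gene that NMDA receptor calcium acts on, was at -0.28 (SE 0.078, edgeR adjusted p = 0.083) in Del/+ and -0.27 (SE 0.078, adjusted p = 0.15) in Del/Dup.

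Of 12 genes of glutamate transport and metabolism, 0 were called by edgeR against wt, where 0.771%, 0.272% and 0.0907% of all genes were in Del/+, Dup/+ and Del/Dup, and 1, *Srr*, was called between Del/+ and Dup/+, where 0.784% of all genes were. *Srr* encodes serine racemase, which makes the NMDA co-agonist D-serine. It was 13.3 ± 0.80 CPM in Del/+ (SD, n = 4) and 15.9 ± 0.63 CPM in Dup/+ (SD, n = 5), with a log2 FC of -0.25 (SE 0.057, edgeR adjusted p = 0.043), and 15.1 ± 0.73 CPM in wt (SD, n = 6). The vesicular transporter gene *Slc17a7*, which is also on the list of excitatory neuron markers, was at -0.21 (SE 0.065, edgeR adjusted p = 0.11) in Del/+. *Slc17a6*, which is abundant in the thalamus, was at 0.81 (SE 0.21, edgeR adjusted p = 0.072) in Del/+.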

How the data were processed

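Hippocampal RNA of 19 male rats was sequenced by the authors as single-end reads of 50 bases (TruSeq Stranded Total RNA Gold kit). The labels' protocol describes removal of ribosomal RNA, while their molecule field and the study's methods name polyA RNA, and which holds is not settled here. Per the study's methods, Hisat2 placed the reads on the rat assembly rn6 and HTSeq-count assigned them to Ensembl genes. The deposited numbers are raw counts, not normalized, in 1 file per library, and the 5 summary lines at the end of each file entered neither tests nor library sizes.

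Groups came from the description field of the labels. Nothing in the labels says more of the replicates than that they are separate samples, so p values measure the spread between these samples. Genes were filtered with filterByExpr and library sizes scaled with TMM. All 19 libraries entered 1 quasi-likelihood fit in edgeR 4.0.16 (R 4.3.3) with a mean per group, with no covariate, and a second fit for the slope on copies, with Benjamini-Hochberg adjustment over all 15440 genes tested and calls at an adjusted p under 0.05. Log2 fold changes used a prior count of 2, SE came from the F statistic, and 95% intervals are normal intervals on it. The script was tested on simulated counts. Receptor genes had between 40 and 42457 reads per library. No 2 libraries of a group agreed within sampling noise (chi-square per degree of freedom 3.60 to 59.9), so the spread between libraries exceeded counting error.

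Alternatives were DESeq2 1.42.0, other scalings, no filter, other groupings and covariates, the replicate number as a block and leaving out each library, and 2 more were chosen after seeing the data, both on the dentate granule cell markers. The values in full are those of the called gene, of up to 8 others with the smallest unadjusted p against wt, and of the gene with the most reads in each class, and other genes are named with single values, some after those were seen. The members and lists were chosen with earlier results of these data known. A further 2 genes whose symbols fit the rule are not reported here. Levels of different genes were not ranked, since transcript lengths were not used here. RefSeq windows of GRCr8 gave sequences and gene order only.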

Additional observations from a re-analysis of the deposited data

Results flagged for a closer look

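In 96 groups of receptor gene levels, 4 to 6 libraries each, 2 libraries lay apart from the rest of their group by Dixon's criterion, and chance at 1 in 20 gives 4.8. *Grin2b* in wt replicate 4 was at 399 CPM, while the other wt libraries ran from 520 to 575 CPM. *Grm7* in wt replicate 1 was at 68.6 CPM, while the other wt libraries ran from 60.5 to 62.1 CPM. No receptor gene differed between Del/+ and Dup/+ at an adjusted p under 0.05 in edgeR.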

How the results depend on the processing

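The count of receptor genes called in Del/+ against wt was 1. It was 4 with DESeq2 (*Grik1*, *Grik5*, *Grin1* and *Grin2c*) and 2 with no filter on low counts (*Grik1* and *Grin2c*). It was 0 with wt replicate 5 counted as Dup/+, without the 2 libraries lowest in dentate markers or with the dentate marker sum as a covariate. With the term for multi-mapped reads each Del/+ value rests on Del/+ replicate 4 alone, so no count is given for it. Leaving out single libraries gave 0 (without Del/+ replicate 2) to 3 (without Del/Dup replicate 2 or 3), and 2 without wt replicate 4 or Dup/+ replicate 4. In Dup/+ the count of 0 became 1 with DESeq2 and with only the groups compared (*Grin2c*, adjusted p = 0.047), and leaving out single libraries gave 0 to 1 (without Del/Dup replicate 3). In Del/Dup it was 0 to 2 (without Del/Dup replicate 3). Between Del/+ and Dup/+ DESeq2 gave 1, and leaving out single libraries 0 to 1 (without wt replicate 1), as it did for the slope, 0 to 1 (without wt replicate 1, *Grik1* with adjusted p = 0.048). The median over the 24 genes moved with the dentate covariate to 0.014 in Del/+, -0.046 in Del/Dup and 0.055 between Del/+ and Dup/+. Without the covariate the median between Del/+ and Dup/+ was -0.039, and leaving out Dup/+ replicate 4 turned it to 0.017. The dentate sum of every Del/+ library is below that of every wt library, so this covariate and the Del/+ genotype cannot be told apart. The cause of these changes was not tested.

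Replicate numbers were not taken to pair the samples: over 24 pairs of libraries with the same number in different groups the correlation of deviations from the group means was -0.18 to 0.12. With a replicate block the counts were 1 in Del/+ (*Grin2c* at -0.33, adjusted p = 0.026) and 0 in the other 4 comparisons, as without it.

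Over 30 alternatives, 3600 values of single genes were recomputed. No called value changed sign, 5 lost and 18 gained significance, and 160 values that were called in neither fit changed sign. The genes with the fewest reads were *Grin3b*, with 40 to 116 per library, and *Grm6*, with 60 to 163.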
